A study of Mus musculus with 45 samples.

Results

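The genes described here are 10 feedback targets and antagonists of Wnt signalling, chosen by name from the 52636 genes of the deposited tables: Axin2, Nkd1, Notum, Apcdd1, Sp5, Wif1, Dkk2, Dkk3, Sfrp1 and Sfrp5. All 10 had a row in both tables, 1 table of cells sorted from mouse intestine and 1 table of intestinal organoids. The study addressed what the receptor Lgr5, a marker of intestinal stem cells (ISCs), does in the developing and adult epithelium. It holds 45 RNA-seq libraries, 15 of sorted cells and 30 of organoids.

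The sorted embryonic cells were eGFP-positive cells of whole small intestine from Lgr5-DTReGFP mice, in which the reporter is knocked into the Lgr5 locus, so that heterozygous embryos (HE) keep 1 working copy and homozygous embryos (KO) none. At E16.5 there were 2 HE pools, of 7 and 8 embryos, and 2 KO pools, of 2 and 6 embryos, and each KO pool shared its litter with the HE pool of the same number. At E18.5 there were 2 single HE embryos. HE adults of the same strain, 2 months old, gave eGFP-positive cells of the duodenum and of the ileum, with both regions from each of 2 mice. A second adult set came from the ileum of Lgr5-Cre/+ heterozygotes (2 mice) and Lgr5-Cre/flox conditional knockouts (cKO, 3 mice), all 2 months old, given 2 mg of tamoxifen 48 hours earlier and sorted for eGFP and RFP, so that only cells in which the Lgr5-driven Cre had recombined were kept. Organoids were grown from E17.5 small intestine of Lgr5-DTReGFP embryos without the knock-in (WT, cultures 10, 5 and 30) or homozygous for it (KO, cultures 7 and 2), each culture from 1 embryo, and sampled at passage 4 in mouse Rspondin 1, 2 or 3 (Rspo1, Rspo2, Rspo3) at 5 or 100 ng/ml. Every culture was in all 6 conditions. The knock-in allele still makes a transcript that is counted for Lgr5, so the gene-level value checks the genotype in part. At E16.5 Lgr5 measured 104.25 and 125.1 CPM (counts of a gene scaled to 1e+06 reads on genes) in HE and 64.75 and 51.65 CPM in KO.

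Wnt ligands stabilise beta-catenin, which enters the nucleus and, with TCF/LEF factors, switches on target genes, and several of those targets limit the signal that induced them. R-spondins raise the response by binding Lgr receptors and removing the ubiquitin ligases Rnf43 and Znrf3 that degrade Wnt receptors. Intestinal crypts depend on this signal for their stem cells. Axin2 is a scaffold of the complex that degrades beta-catenin, Nkd1 binds Dishevelled, and Sp5 is a transcription factor that acts at Wnt target genes. Apcdd1 is a membrane inhibitor of Wnt receptors, and Notum is a secreted enzyme that removes the lipid from Wnt ligands. Wif1, Sfrp1 and Sfrp5 are secreted proteins that bind Wnts, Dkk2 is a secreted ligand of the Wnt co-receptors, and Dkk3 is a divergent member of the Dkk family.

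RefSeq promoter windows on GRCm38.p6 were matched for 6 of the 10 genes, and the 250 bases before the start were searched on both strands for the letters CTTTGAT and CTTTGAA, which TCF/LEF factors are known to bind. Of the 32851 windows, 3.21% held CTTTGAT, 4.46% held CTTTGAA and 7.48% held either. Among the 6 windows only that of Sp5 held a match, CTTTGAT on the strand of the gene, beginning 104 bases before the start. The windows of the 3 genes with the highest levels per length are printed because the dose and region results turn on them. They are Sp5 (chr2:70474673-70474922, plus strand), Axin2 (chr11:108920099-108920348, plus strand) and Sfrp5 (chr19:42202253-42202502, minus strand). Capitals mark the match, and a window without one says only that these letters are not in these bases.
Sp5: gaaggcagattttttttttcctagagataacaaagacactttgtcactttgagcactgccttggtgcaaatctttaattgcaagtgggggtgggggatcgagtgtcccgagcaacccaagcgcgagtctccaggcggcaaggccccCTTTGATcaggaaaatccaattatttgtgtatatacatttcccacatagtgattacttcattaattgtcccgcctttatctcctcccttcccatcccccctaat
Axin2: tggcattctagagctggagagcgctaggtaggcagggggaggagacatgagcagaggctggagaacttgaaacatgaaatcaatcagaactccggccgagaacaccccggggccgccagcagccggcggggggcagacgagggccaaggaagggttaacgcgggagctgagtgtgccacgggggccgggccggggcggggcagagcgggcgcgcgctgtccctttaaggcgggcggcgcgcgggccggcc
Sfrp5: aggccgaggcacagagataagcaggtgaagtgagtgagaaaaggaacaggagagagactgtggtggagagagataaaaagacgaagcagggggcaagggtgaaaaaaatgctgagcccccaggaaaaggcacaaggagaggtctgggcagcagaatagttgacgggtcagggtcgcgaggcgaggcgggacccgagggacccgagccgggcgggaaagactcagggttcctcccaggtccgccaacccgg

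The levels of the 10 genes were far apart in both tables. Per kilobase of merged exons, Axin2 (ENSMUSG00000000142, chr11:108920349-108950783 on GRCm38) was highest, with a mean of 53.9 CPM per kb over the 15 sorted-cell libraries and 33.9 over the 30 organoid libraries. Sfrp5 (11.2) and Sp5 (4.82) followed in sorted cells, and Sp5 (5.86) and Sfrp5 (4.42) in organoids. Sfrp1 was at 1.82 CPM per kb and Dkk3 at 0.724 in sorted cells, but at 0.00686 and 0.0506 in organoids, where Sfrp1 was above 3 reads in 0 of the 29 libraries whose depth could be recovered. Nkd1 was at 1.20 CPM per kb in sorted cells and 0.509 in organoids. Notum, Wif1 and Dkk2 stayed at or below 1.25, 0.8 and 2.4 CPM in every sorted library. Wif1 and Dkk2 did not pass the filter of 1 CPM in 2 libraries in any comparison, and Notum passed it only in organoids, where it lay between 0.1 and 1.45 CPM. Wif1, Dkk2, Dkk3 and Sfrp1 were at most at 0.6 CPM in all 30 organoid libraries and were not tested there, though Dkk3 was above 3 reads in 15 of 29 libraries. In sorted cells 1 read was worth 0.1 to 0.784 CPM, from totals of 1275948 to 9984672 reads, and in organoids 0.0302 to 0.0552 CPM, from 18127799 to 33104361 reads. Where a gene is at 0, 3 reads is the level that counting error allows, which is 0.3 to 2.35 CPM in sorted libraries.

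**Figure D1:**
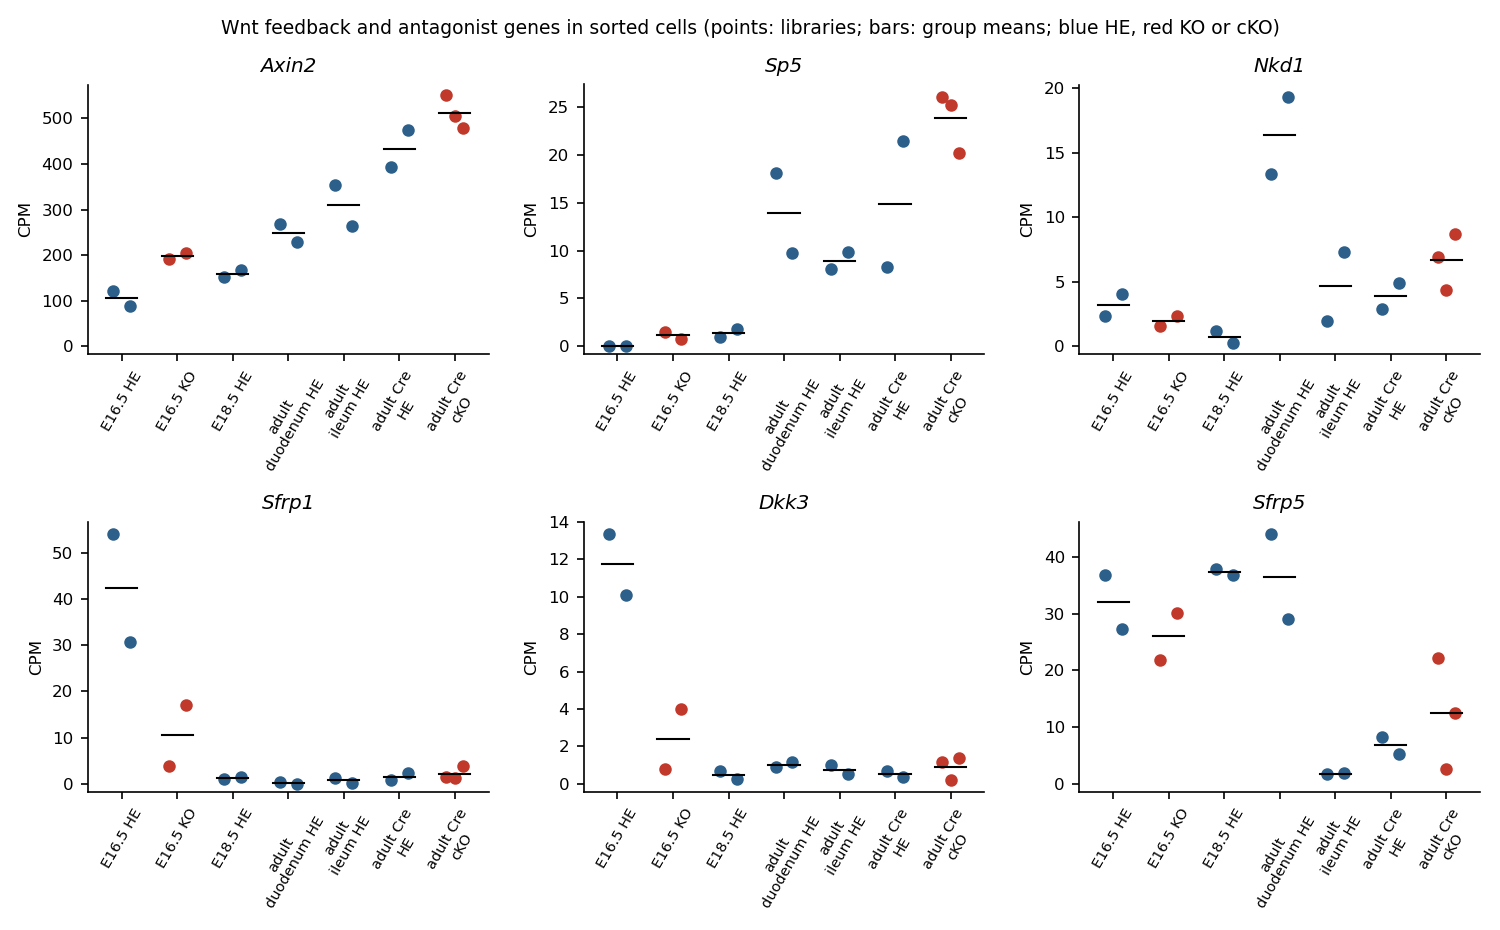
CPM of 6 of the 10 genes (y axis, linear) in the 15 sorted-cell libraries by group (x axis), with points for libraries, black bars for group means, blue for HE and red for KO or cKO. Axin2 was lowest in the E16.5 HE pools and above 228 CPM in all adult libraries, Sfrp1 and Dkk3 were highest in the E16.5 HE pools, and Sfrp5 was below 2 CPM in the adult ileum of the DTReGFP mice.

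In E16.5 ISC precursors the comparison of KO with HE asks what loss of Lgr5 does to the feedback genes. The HE pools held 122.3 and 89.3 CPM of Axin2 and the KO pools 192.65 and 204.9 CPM, from 156, 177, 503 and 516 reads. Both KO pools lay above both HE pools, and the difference was 0.92 on the log2(CPM + 1) scale (SE 0.17, limma adjusted p = 0.0795), which passed the limits used for sorted cells, a false discovery rate (FDR) of 0.1 together with a change of more than 1.5-fold. Sfrp1, the Wnt-binding protein, measured 54.1 and 30.8 CPM in HE, against 3.85 and 17.1 CPM in KO. Dkk3 measured 13.35 and 10.1 CPM in HE, against 0.8 and 4 CPM in KO. For both genes the differences of -2.16 and -2.07 did not pass the test (limma adjusted p = 0.129 and 0.148). The groups did not overlap, but with 2 pools in each group this often arises by chance. The share of all genes without overlap is not given, here or in later comparisons. Lack of overlap is thus a description only. Nkd1 (-0.49), Sfrp5 (-0.29) and Apcdd1 (0.16) had overlapping groups and were not called. P-values measure only the spread between these samples. In all, 1 of the 6 genes tested was called, against 0.527% of all genes. The median over the 6 was -0.39, beside 0.08 over all genes.

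The pools pair by litter, and with litter as a block 3 of the 6 were called, against 4.80% of all genes: Axin2 (limma adjusted p = 2.02e-06), Sfrp1 (8.92e-10) and Dkk3 (0.00309). With litter fitted, each gene has almost no spread of its own left, so these p-values rest mainly on a spread shared across genes. They do not measure how far the 2 litters differed. Deviations of pools of the same litter had a correlation of -0.0324. Within the first litter Axin2 differed by 0.65, Sfrp1 by -3.51 and Dkk3 by -2.99. Within the second litter the differences were 1.19, -0.81 and -1.15. The directions were thus shared, and the sizes of the Sfrp1 and Dkk3 differences were not. Sfrp1 and Dkk3 were also called by edgeR's quasi-likelihood test on the recovered reads (adjusted p = 0.0591 and 0.0913), with 3 of the 4 genes it tested called. The Axin2 call was lost without the first KO pool (difference 0.96, limma adjusted p = 0.139), with a pseudocount of 0.1 (0.206) and with no filter (0.448). Sp5, with 0 reads in both HE pools, was at 1.55 and 0.8 CPM in the KO pools and did not pass the filter. In the HE pools of the same litters 3 reads were worth 2.35 and 1.51 CPM. These KO values lay below that level, so a gain from 0 cannot be read from them.

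Markers of other cells moved with genotype in these pools. The 18 mesenchyme markers summed to 433.8 CPM in HE and 54.25 CPM in KO in the first litter and to 222.45 and 145.6 CPM in the second, with Meox2, Twist1 and Twist2 at 0 in both KO pools. Their sum, like Sfrp1 and Dkk3, thus differed more in the first litter than in the second. All 14 of them that were tested were lower in KO and 0 were called, with a median difference of -1.58. The 6 smooth muscle markers summed to 370.05 to 391 CPM in HE and 65.2 to 207.7 CPM in KO, and the 10 epithelial markers to 3151.85 to 3429.05 and 3722.2 to 3902.9 CPM. Of the 7 enterocyte markers 5 were called lower. Ptprc, an immune cell marker, was at 31.35 and 17.7 CPM in HE and at 2.7 and 8.75 CPM in KO. The other immune cell markers are not given here. The part of these cells in the Sfrp1, Dkk3 and Axin2 differences was not tested, and in bulk RNA fewer cells of a type and less RNA per cell cannot be told apart. Of the other beta-catenin targets and feedback genes, 17 of 19 were tested, and Lgr5 itself was called, at -0.97 (SE 0.18, limma adjusted p = 0.0795). The median over the 17 was 0.28. Of 8 destruction complex genes tested and 4 other secreted antagonists tested, 0 were called.

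Between E16.5 and E18.5 in HE cells Sfrp1 and Dkk3 fell and Axin2 rose. Sfrp1 went from 54.1 and 30.8 CPM to 0.95 and 1.35 CPM, a difference of -4.29 (SE 0.36, limma adjusted p = 0.00051), and Dkk3 from 13.35 and 10.1 CPM to 0.7 and 0.25 CPM, a difference of -3.11 (SE 0.36, adjusted p = 0.00138). Both stages stood apart in every library. Axin2 reached 152.2 and 167.8 CPM at E18.5, above both E16.5 pools, a difference of 0.61 (limma adjusted p = 0.0248). Nkd1 fell from 2.4 and 4.05 CPM to 1.2 and 0.25 CPM (-1.32, limma adjusted p = 0.0415), and Apcdd1 from 3.15 and 2.55 CPM to 1.4 and 0.25 CPM (-1.15, adjusted p = 0.0614). For Nkd1 and Apcdd1 these values rest on few reads, since 1 read was worth 0.784 and 0.504 CPM in the E16.5 pools and 0.231 and 0.219 CPM at E18.5. Sfrp5 differed by 0.23 and its groups overlapped. Thus 5 of the 6 genes tested were called, in a comparison in which 49.6% of all genes were called.

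The Axin2 difference of this comparison was 0.46 with TMM scaling and below the fold limit. The same was true by edgeR (0.46) and without the second E16.5 pool (0.38) or the second E18.5 embryo (0.54). The Nkd1 and Apcdd1 calls were lost without either E18.5 embryo, at limma adjusted p of 0.115 and 0.431 for Nkd1 and 0.153 and 0.578 for Apcdd1. The mesenchyme markers again moved with the comparison. Their sum was 19.05 to 23.3 CPM at E18.5, with Foxl1, Meox2, Twist1 and Twist2 at 0, and 14 of 14 tested were called lower, while 7 of 10 epithelial markers were called higher. Ptprc was at 1.4 and 0.25 CPM at E18.5, below both E16.5 HE pools. The part of those cells in the fall of Sfrp1 and Dkk3 was not tested. Pools of embryos were here compared with single embryos. Among the other targets, 8 of 17 were called higher, led by Olfm4 (3.57) and Smoc2 (2.27), both stem cell markers, and 3 lower, among them Tnfrsf19 (-2.74). Of the other secreted antagonists, Igfbp4 (-2.37) and Sfrp2 (-1.06) were called lower. Kremen1, a membrane receptor of Dkk proteins that was kept in the same list, was called higher (1.94).

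In adult HE cells, with duodenum and ileum pooled, Sp5, Axin2, Nkd1 and Apcdd1 were higher than at E18.5. Sp5 was at 18.05, 9.7, 8.05 and 9.85 CPM in the adults and at 0.95 and 1.8 CPM at E18.5, a difference of 2.35 (SE 0.34, limma adjusted p = 0.0042). Axin2 was between 228.3 and 355.15 CPM in the adults, above both embryos, a difference of 0.78 (adjusted p = 0.022). Nkd1 differed by 2.47 (adjusted p = 0.0543) and Apcdd1 by 1.45 (adjusted p = 0.0468), again with no overlap. In all, 4 of the 7 genes tested were called, each of them higher, against 19.0% of all genes. These tests take the 4 adult libraries of 2 mice as separate samples. With the regions of each mouse averaged, the same 4 calls were kept. The 3 calls other than Sp5 were lost without either E18.5 embryo (limma adjusted p of 0.214 and 0.158 for Axin2, 0.200 and 0.340 for Nkd1, 0.111 and 0.362 for Apcdd1), and that of Nkd1 also without the duodenum of the first mouse (0.108). Of the 19 other targets 8 were called and all 19 were higher, led by Tnfrsf19 (3.51), Ephb3 (3.47) and Lef1 (2.60). All 7 Paneth cell markers were called higher in the adults, and 3 of 5 mesenchyme markers lower. Ptprc was at 1.4 and 0.25 CPM at E18.5 and between 12.2 and 71.4 CPM in the adults. The part of these cells in the differences was not tested.

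Within the adult gut the gene that stood apart was Sfrp5 (ENSMUSG00000018822, chr19:42197971-42202252). It was at 44.1 and 29 CPM in the duodenum and at 1.75 and 1.85 CPM in the ileum of the same mice, so that the ileal level was 0.0492 of the duodenal mean. The difference was -3.72 (SE 0.28, limma adjusted p = 0.00196), and it remained called under every alternative tried. Sfrp5 at E18.5, in whole small intestine, was at 37.85 and 36.8 CPM. Against those embryos the adult ileum alone differed by -3.77 (limma adjusted p = 4.27e-05), whereas both regions together differed by -1.92 and were not called (0.314). That value takes the 4 libraries of 2 mice as separate samples. With the regions of each mouse averaged the difference was -0.95 and called (limma adjusted p = 0.00639), as it was, at -1.92, in 1 fit of all 15 libraries (0.0109), and the duodenum alone differed by -0.06. Nkd1 was at 13.4 and 19.35 CPM in the duodenum and at 1.95 and 7.35 CPM in the ileum. The difference of -1.79 was not called (limma adjusted p = 0.103). The regions did not overlap, which in groups this small often arises by chance. Thus 1 of 6 genes tested was called, against 6.88% of all genes. With mouse as a block, 2 of 6 were called, Nkd1 being added (limma adjusted p = 0.00765), against 11.1% of all genes. Like the litter block at E16.5, this fit rests mainly on a spread shared across genes. Axin2 (0.31), Apcdd1 (0.72), Sp5 (-0.53) and Dkk3 (-0.22) were not called. All 7 enterocyte markers were called lower in the ileum, with sums of 436.1 to 627.3 CPM in the duodenum and 118.1 to 118.9 CPM in the ileum. The immune cell marker Ptprc was at 56.9 and 71.4 CPM in the duodenum and at 12.2 and 27.05 CPM in the ileum. The part of either cell type in the Sfrp5 and Nkd1 differences was not tested. Of the other 19 targets only Tnfrsf19 was called (0.87).

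In adult ileum 48 hours after tamoxifen, the comparison of cKO with HE asks whether acute loss of Lgr5 moves the same genes. Axin2 was at 393.25 and 473.65 CPM in HE and at 551.35, 505.15 and 478.45 CPM in cKO mice. The difference was 0.24 and not called. The groups did not overlap, which in groups this small can arise by chance. Sp5 was at 8.3 and 21.4 CPM in HE and at 26, 25.2 and 20.15 CPM in cKO mice, with overlap and a difference of 0.77. Sfrp5 was at 8.3 and 5.2 CPM in HE and ranged from 2.65 to 22.2 CPM in cKO mice. All 7 genes tested were higher on average in cKO, with a median of 0.41 beside 0.09 over all genes, and by limma 0 of 7 were called and 0 were at an unadjusted p under 0.05. edgeR called 0 of the 6 it tested. Over all genes 0.0504% were called. The genotypes of these libraries are not certain, because a supplementary dataset of the study holds the same values with the first HE library given as cKO and the second cKO library as HE. Gene-level Lgr5, which does not isolate the deleted exon, was at 52.8 and 87.55 CPM in the libraries labelled HE and at 89.15, 109.35 and 90.65 CPM in those labelled cKO, so that every cKO library lay above both HE libraries. With the genotypes of that dataset instead of those of the labels, the order is 87.55 and 109.35 CPM in HE and 52.8, 89.15 and 90.65 CPM in cKO. With those genotypes Axin2 differed by -0.06, Sp5 by -0.47 and Sfrp1 by -0.01, reversing their direction, Sfrp5 was called at 1.58 (limma adjusted p = 0.0827), and 3.92% of all genes were called.

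Over all sorted groups the means of Axin2 stood in the order E16.5 HE (106 ± 23.3 CPM, SD, n = 2), E18.5 HE (160 ± 11.0, n = 2), E16.5 KO (199 ± 8.66, n = 2), adult duodenum (249 ± 28.8, n = 2), adult ileum (310 ± 64.0, n = 2), adult Cre HE (433 ± 56.9, n = 2) and adult Cre cKO (512 ± 36.9, n = 3). By the labels, only the neighbours duodenum and ileum had overlapping libraries, and the Cre cells came from another allele and sort. The order of the 2 Cre groups is not certain, because their labelled genotypes are not. With the genotypes of the study's dataset the Cre groups overlapped, and Axin2 differed by -0.06 (cKO against HE).

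In WT organoids Axin2 rose with the dose of every Rspondin. In WT cultures 10, 5 and 30 Axin2 was at 14.8, 25.05 and 15.7 CPM in 5 ng/ml Rspo1 and at 239.2, 429.65 and 226.05 CPM in 100 ng/ml. In Rspo2 it was at 44.2, 91 and 14.55 CPM and at 530.25, 461.65 and 615 CPM. In Rspo3 it was at 2.2, 4.6 and 3.65 CPM and at 121.45, 156.75 and 88.15 CPM. Each culture was higher at the higher dose, and the differences were 3.91 with Rspo1 (SE 0.53, limma adjusted p = 3.68e-06), 3.73 with Rspo2 (adjusted p = 2.92e-05) and 4.78 with Rspo3 (adjusted p = 1.48e-07). The means rose 16.1-fold, 10.7-fold and 35.1-fold. All 3 were called under every alternative tried.

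**Figure D2:**
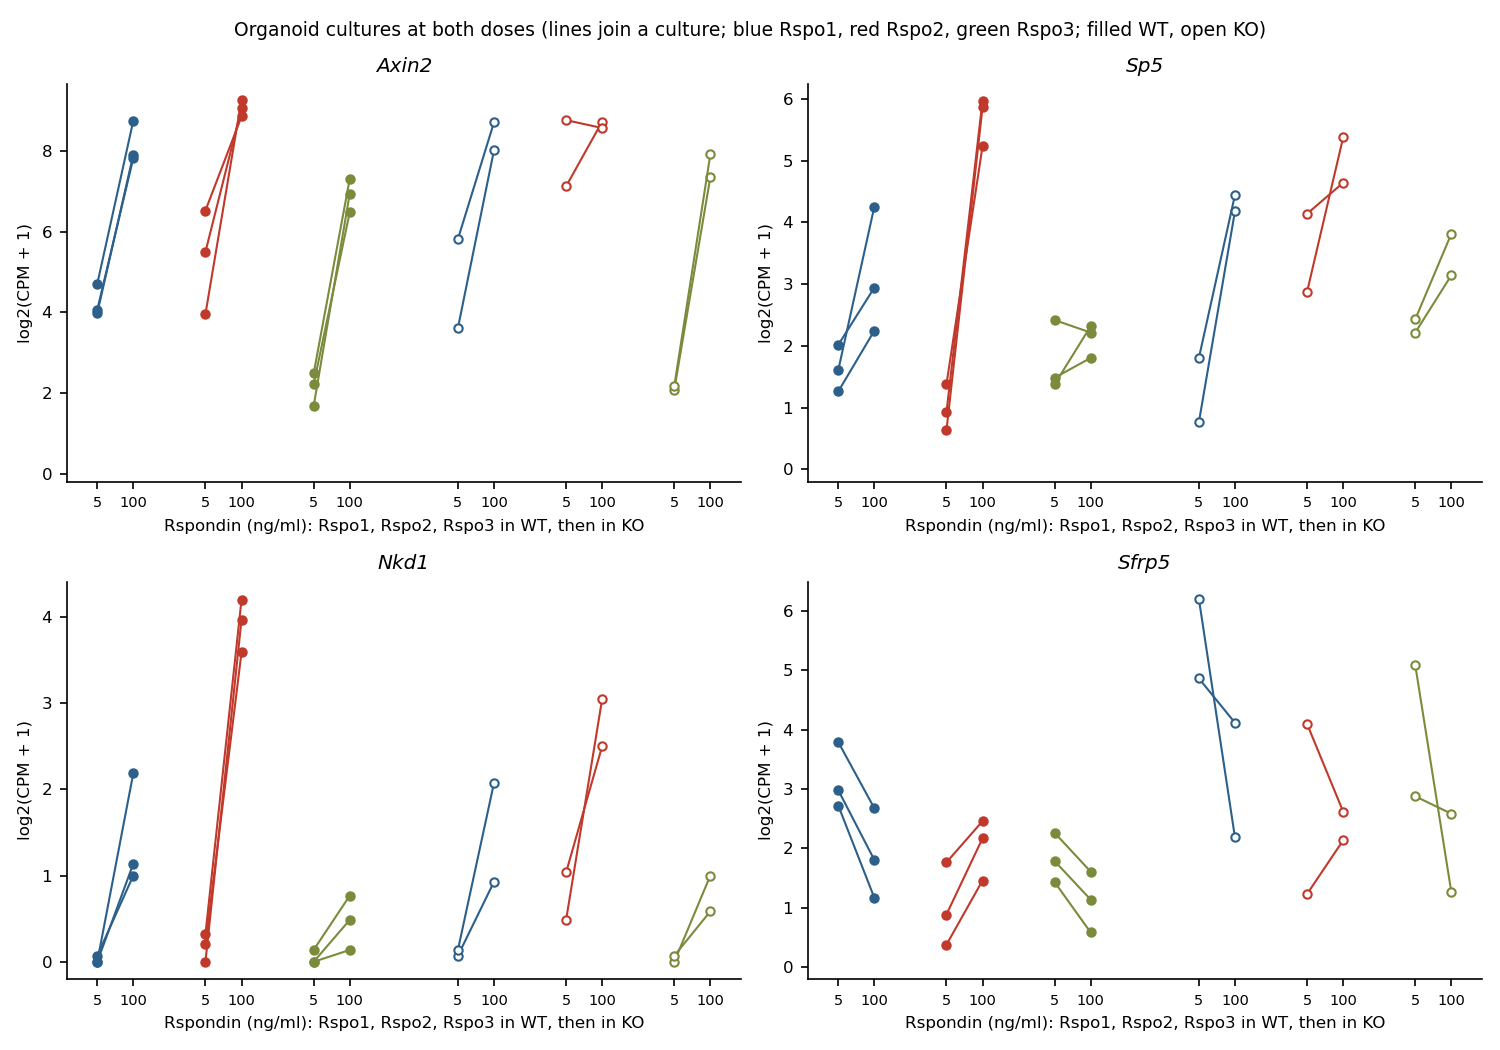
log2(CPM + 1) of Axin2, Sp5, Nkd1 and Sfrp5 (y axis) at 5 and 100 ng/ml Rspondin (x axis), with lines joining the 2 doses of a culture, blue for Rspo1, red for Rspo2, green for Rspo3, filled points for the 3 WT cultures and open points for the 2 KO cultures. Axin2 was higher at 100 ng/ml in every culture and ligand except KO culture 2 in Rspo2 (433.4 CPM at 5 ng/ml and 378.5 CPM at 100 ng/ml).

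Sp5 went from 0.9, 1.6 and 0.55 CPM in 5 ng/ml Rspo2 to 61.6, 36.6 and 57.4 CPM in 100 ng/ml, a difference of 4.71 (SE 0.42, limma adjusted p = 2.02e-07). With Rspo1 it went from 3.05, 2.05 and 1.4 CPM to 6.7, 18.1 and 3.75 CPM (1.52, adjusted p = 0.00455), and this call was lost without WT culture 5 (0.96, adjusted p = 0.0816). With Rspo3 it was at 1.6, 4.35 and 1.8 CPM and at 4, 3.65 and 2.5 CPM, with overlap and a difference of 0.35 that was not called. Nkd1, which binds Dishevelled, was at or below 0.25 CPM in all 9 WT libraries at 5 ng/ml and reached 14.6, 11 and 17.3 CPM in 100 ng/ml Rspo2 (3.74, SE 0.28, limma adjusted p = 2.18e-08), 1.2, 3.55 and 1 CPM in Rspo1 (1.42, adjusted p = 0.000208) and 0.1, 0.4 and 0.7 CPM in Rspo3 (0.42, not called). Apcdd1 rose with Rspo2 (1.63) and Rspo1 (1.05), and Notum with Rspo2 (0.62, from 0.45, 0.25 and 0.3 CPM to 1.2, 0.6 and 1.45 CPM). Whether the dose differences themselves differed between ligands was not tested.

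The counts of called genes were thus 4 of 6 with Rspo1, 5 of 6 with Rspo2 and 1 of 6 with Rspo3, every one of them higher at 100 ng/ml, while 53.4%, 33.4% and 51.4% of all genes were called. The members' medians were 1.23, 2.68 and 0.26, beside 0.28, 0.17 and 0.24 over all genes. TMM scaling took the all-gene median with Rspo1 from 0.28 to 0.02 and left every call of these 6 genes as it was. Sfrp5 was not called with any ligand in WT, and its direction differed: it was lower in all 3 cultures at the higher dose of Rspo1 (6.9, 12.85 and 5.6 CPM to 2.5, 5.4 and 1.25 CPM) and Rspo3, and higher in all 3 with Rspo2 (0.85, 2.4 and 0.3 CPM to 3.5, 4.5 and 1.75 CPM). All organoid libraries share 1 estimate of the spread, and without KO culture 7 or 2 the Rspo1 difference of Sfrp5 (-1.28) was called (limma adjusted p = 0.0179 in both).

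**Figure D3:**
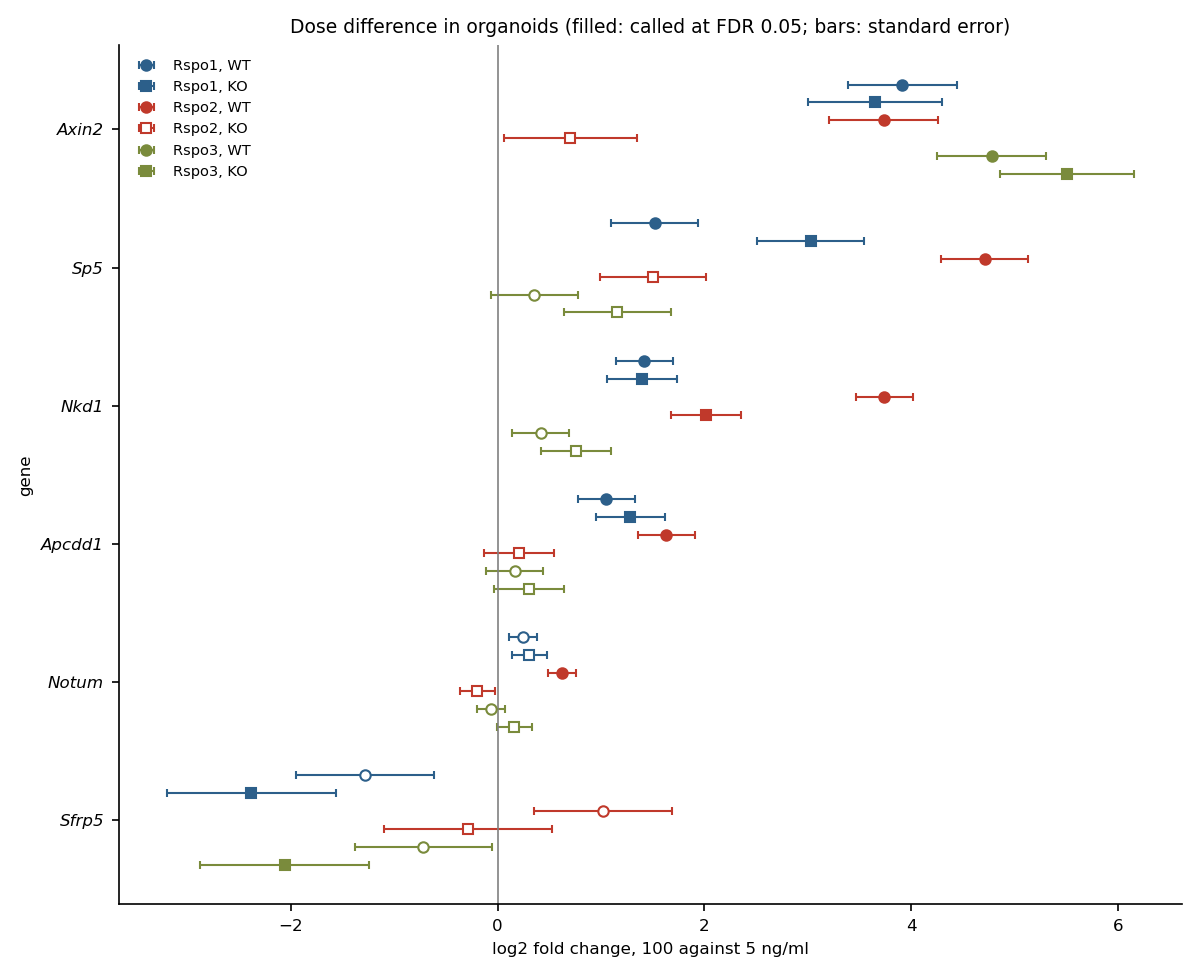
Difference between 100 and 5 ng/ml (x axis, log2 fold change on the log2(CPM + 1) scale) for the 6 genes tested in organoids (y axis), circles for WT and squares for KO, filled where called at FDR 0.05, with bars of 1 standard error. The WT Rspo2 differences of Sp5 (4.71) and Nkd1 (3.74) lay apart from those of the other ligands, and Axin2 in KO with Rspo2 (0.70) lay apart from its other dose differences, which ran from 3.65 to 5.50.

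In KO organoids Axin2 rose with the dose of Rspo1 and of Rspo3, and its dose difference with Rspo2 was not called. In KO cultures 7 and 2 Axin2 was at 11.2 and 55.3 CPM in 5 ng/ml Rspo1 and at 257.6 and 416.7 CPM in 100 ng/ml (3.65, SE 0.65, limma adjusted p = 0.00038). In Rspo3 it was at 3.25 and 3.5 CPM and at 162 and 240.4 CPM (5.50, adjusted p = 7.45e-07). In Rspo2 it was at 138.4 and 433.4 CPM and at 422.55 and 378.5 CPM, with overlap and a difference of 0.70 (adjusted p = 0.92). Sp5 was at 6.35 and 16.65 CPM in 5 ng/ml Rspo2 and at 40.6 and 24 CPM in 100 ng/ml, a difference of 1.5 that was not called (adjusted p = 0.472). Nkd1 rose with Rspo2, from 0.4 and 1.05 CPM to 7.25 and 4.65 CPM (2.01, limma adjusted p = 0.0174), a call lost without KO culture 7 (adjusted p = 1), WT culture 10 (0.140) or WT culture 30 (0.0816).

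In KO with Rspo1 5 of 6 genes were called, against 29.8% of all genes. Axin2, Sp5 (3.03), Nkd1 (1.39) and Apcdd1 (1.28) were higher at 100 ng/ml and Sfrp5 lower (-2.38). The Axin2, Sp5 and Apcdd1 calls were lost without KO culture 7 (limma adjusted p = 0.0622, 0.0577 and 0.261), which leaves 1 KO culture, assumed to vary like the other groups, and that of Nkd1 without KO culture 2 (0.155). With Rspo2 1 of 6 was called, against 0.115% of all genes, and with Rspo3 2 of 6, against 44.5%, namely Axin2 higher and Sfrp5 lower (-2.06). The culture block added Sp5 for Rspo3 (1.16, limma adjusted p = 0.0426), making 3 of 6 against 55.1% of all genes. The Sfrp5 differences rest on KO culture 7, with 72.55 CPM in 5 ng/ml Rspo1 and 32.95 CPM in 5 ng/ml Rspo3, against 3.55 and 1.4 CPM at 100 ng/ml. In culture 2 the values were 28.1 and 6.35 CPM against 16.35 and 5 CPM. Without culture 7 they were -0.75 and -0.29 (adjusted p = 0.647 and 0.804), and without WT culture 10 they lost the call with the difference unchanged (0.0756 and 0.0967). The Rspo3 call was likewise lost without WT culture 5 (0.0613) or 30 (0.0643).

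The dose difference itself was compared between genotypes by an interaction term. With Rspo2 all 6 genes had a smaller dose difference in KO, with a median of -1.57 beside -0.12 over all genes, and 1 of 6 was called, against 0.439% of all genes: Sp5, at -3.21 (SE 0.67, limma adjusted p = 0.032). Axin2 (-3.03, adjusted p = 0.113), Nkd1 (-1.73, 0.0846), Notum (-0.82, 0.0986) and Apcdd1 (-1.42, 0.158) did not pass. With culture as a block 5 of 6 were called, against 3.97% of all genes, those 4 at limma adjusted p of 0.0128, 0.0294, 0.0194 and 0.018 and Sp5 at 0.00767. Without the block the Sp5 call was lost without KO culture 2 (-2.21, adjusted p = 0.903), WT culture 10 (0.372) or WT culture 30 (0.285). Without KO culture 7 Axin2 (0.0325) and Nkd1 (0.0264) were called, and without WT culture 5 Notum (0.0452). With Rspo1 and with Rspo3, limma called 0 of 6 genes, and in each case 0% of all genes, with 1 and 0 members at an unadjusted p under 0.05. Of the 18 other targets tested, 5 were called for Rspo2, all smaller in KO, led by Lgr5 (-3.51), Ascl2 (-2.97), a stem cell transcription factor, and Rnf43 (-1.84). Lgr5 is the gene altered in KO.

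At the low dose of Rspo2, Axin2 and Sp5 were higher in KO than in WT. Axin2 in 5 ng/ml Rspo2 was at 44.2, 91 and 14.55 CPM in WT and at 138.4 and 433.4 CPM in KO, a difference of 2.62 (SE 0.59, limma adjusted p = 0.0152). Sp5 was at 0.9, 1.6 and 0.55 CPM in WT and at 6.35 and 16.65 CPM in KO, a difference of 2.53 (SE 0.47, adjusted p = 0.00455). Both KO cultures lay above all WT cultures for both genes, and 2 of 6 genes were called, against 4.54% of all genes. KO culture 2 was the higher of the pair for both. Without it the differences were 1.80 and 1.90 and the calls were lost (limma adjusted p = 0.151 and 0.0781). The Axin2 call was lost as well without WT culture 10 (0.0849) or 30 (0.174), and in a fit of the 2 groups alone both were lost (0.158 and 0.0715). Sfrp5 differed by 1.65 and was called without KO culture 7 (3.09, limma adjusted p = 0.00788).

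Of 18 other targets, 11 were called higher in KO in 5 ng/ml Rspo2, with Olfm4 at 2.61, Ascl2 at 2.56 and Ccnd1, a cell cycle gene, at 2.05. Igfbp4 was the 1 other secreted antagonist called (3.59) of 4 tested, and 0 of 9 destruction complex genes were called. Paneth cell markers moved with the same comparison, 3 of 7 being called higher, with sums of 455.75 to 522.15 CPM in WT and 1099.4 to 1176.55 CPM in KO, and their part in the result was not tested. Mesenchyme markers summed to 7.35 and 7.75 CPM in those KO libraries and to 9.2 to 15.15 CPM in the WT libraries.

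**Figure D4:**
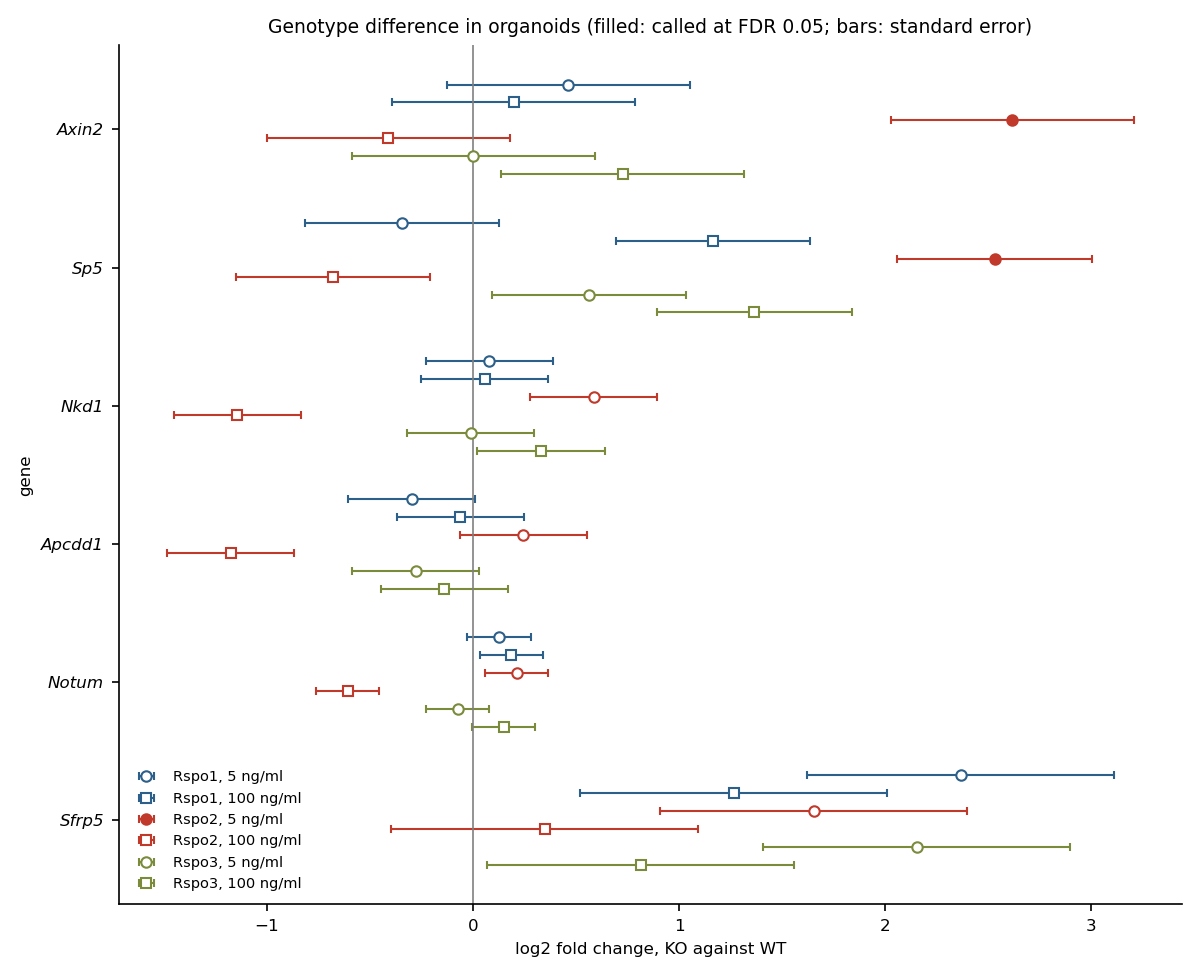
Difference between KO and WT organoids (x axis, log2 fold change on the log2(CPM + 1) scale) for the 6 genes tested (y axis), circles for 5 and squares for 100 ng/ml, coloured by ligand and filled where called at FDR 0.05, with bars of 1 standard error. Axin2 (2.62) and Sp5 (2.53) in 5 ng/ml Rspo2 were the 2 filled points, and with 100 ng/ml Rspo2 Nkd1 (-1.14), Apcdd1 (-1.18) and Notum (-0.61) lay below 0.

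In 100 ng/ml Rspo2 the sign was the other way, and 5 of the 6 genes were lower in KO. Nkd1 was at 14.6, 11 and 17.3 CPM in WT and at 7.25 and 4.65 CPM in KO, a difference of -1.14 (limma adjusted p = 0.0746). Apcdd1 was at 7.5, 3.55 and 4.4 CPM in WT and at 2 and 1.3 CPM in KO (-1.18, adjusted p = 0.0635), and Notum at 1.2, 0.6 and 1.45 CPM in WT and at 0.25 and 0.45 CPM in KO (-0.61, adjusted p = 0.0536). None of these 3 pairs of groups overlapped, which in groups this small can arise by chance. By limma 0 of 6 genes were called, with 3 at an unadjusted p under 0.05, against 1.20% of all genes. Each culture has 1 genotype, so culture cannot be a block here. It entered instead as a correlation between libraries of the same culture, estimated over all genes. With it 1 of 6, Apcdd1, was called (limma adjusted p = 0.0404), against 1.51% of all genes. Without WT culture 5 all 3 were called (0.047 for Nkd1, 0.0392 for Apcdd1, 0.0133 for Notum).

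With Rspo1 and Rspo3 the genotypes differed by no call. limma called 0 of 6 genes in 100 and in 5 ng/ml Rspo1, against 0.214% and 0.125% of all genes, and 0 of 6 in 100 and in 5 ng/ml Rspo3, against 0.868% and 0.193%, with 1 of 6 at an unadjusted p under 0.05 in each of the 4 comparisons. The largest of these differences were those of Sfrp5 at 5 ng/ml, 2.37 with Rspo1 and 2.15 with Rspo3, with no overlap between genotypes (limma adjusted p = 0.472 and 0.586). They were called without KO culture 2 (0.0442 and 0.0145), which leaves culture 7 alone. Sp5 at 100 ng/ml differed by 1.16 with Rspo1 and 1.37 with Rspo3 (limma adjusted p = 0.48 and 0.224).

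Ligands were compared at matched doses in 8 contrasts, each against Rspo1, with p-values adjusted over all genes within a contrast. In WT at 100 ng/ml Rspo2 gave more Nkd1 (2.47, SE 0.28, limma adjusted p = 0.000164) and Sp5 (2.54, SE 0.42, adjusted p = 0.00963) than Rspo1, and every Rspo2 library lay above every Rspo1 library for both genes. These were 2 of 6 genes, against 0.204% of all genes. Both calls were lost without WT culture 10 (0.121 and 0.794) or 30 (0.0968 and 1). With culture as a block 4 of 6 were called, against 1.31% of all genes, with Notum (0.57, limma adjusted p = 0.0189) and Apcdd1 (0.96, 0.02) added. The interaction of this ligand difference with genotype gave 0 of 6 by limma, with 4 at an unadjusted p under 0.05, against 0% of all genes. All 6 interaction values were below 0, with a median of -1.02. In KO, Rspo2 and Rspo1 at 100 ng/ml gave 0 of 6 calls, with 1 at an unadjusted p under 0.05, against 0.0105% of all genes, and Nkd1 differed by 1.27 (limma adjusted p = 1).

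Rspo3 at 100 ng/ml gave lower values than Rspo1 for all 6 genes in both genotypes, and none was called. In WT the 6 differences had a median of -0.88 (all genes -0.14), with Axin2 at -1.26 (limma adjusted p = 0.175), Sp5 at -1.03 and Nkd1 at -0.98, and 0 of 6 were called with 3 at an unadjusted p under 0.05, against 0.00523% of all genes. With culture as a block 2 of 6 were called, Axin2 (limma adjusted p = 0.0413) and Nkd1 (0.0246), against 15.2% of all genes. In KO 0 of 6 were called, with 1 at an unadjusted p under 0.05, against 0% of all genes, and Axin2 differed by -0.73.

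At 5 ng/ml the ligands separated Axin2. In the study this dose gave full organoid survival with Rspo2 but not with Rspo1 or Rspo3. The part of survival in these differences was not tested. Rspo3 gave less of it than Rspo1 in WT (-2.12, SE 0.53, limma adjusted p = 0.00851) and in KO (-2.58, SE 0.65, adjusted p = 0.00786), with no overlap in either genotype. Axin2 was the 1 gene of 6 called in each, against 16.4% and 16.2% of all genes. The calls were lost without WT culture 10 (-2.03, limma adjusted p = 0.154) and without KO culture 2 (-1.52, 0.307). Rspo2 at 5 ng/ml gave more Axin2 than Rspo1 in KO (3.23, SE 0.65, limma adjusted p = 0.00249), together with more Sp5 (2.22, adjusted p = 0.00589) and less Sfrp5 (-2.87, adjusted p = 0.0185), 3 of 6 genes against 17.9% of all genes. The Axin2 call was lost without KO culture 7 (0.0665), the Sp5 call without culture 7 (0.0924) or 2 (0.0576), and the Sfrp5 call without culture 7 (-0.77, 0.658) or WT culture 10 (0.0565). The culture block added Apcdd1 (0.92, limma adjusted p = 0.00755), 4 of 6 against 31.9% of all genes.

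In WT the Axin2 difference between 5 ng/ml Rspo2 and Rspo1 was 1.08 and not called (limma adjusted p = 0.15). The 1 gene of 6 called there, against 22.8% of all genes, was Sfrp5 at -2.15 (adjusted p = 0.0234), a call lost without any 1 of the WT cultures (adjusted p of 0.0958 to 0.182). The culture block added Axin2 (limma adjusted p = 0.0417), 2 of 6 against 35.9% of all genes. The interaction of the Rspo2 and Rspo1 difference with genotype at 5 ng/ml gave 0 of 6 by limma, with 2 at an unadjusted p under 0.05, against 0.00523% of all genes.

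The wider pathway answered the dose as follows. Of the 18 other beta-catenin targets and feedback genes tested, 16, 18 and 16 were called higher at 100 ng/ml in WT with Rspo1, Rspo2 and Rspo3, and 16, 1 and 15 in KO. The single call in KO with Rspo2 was Tnfrsf19 (2.11, limma adjusted p = 0.0489). In WT Lgr5 differed by 4.49, 4.52 and 5.01 with Rspo1, Rspo2 and Rspo3, Olfm4 by 4.20, 3.49 and 6.27, and Tnfrsf19 by 3.46 with Rspo1 and 4.04 with Rspo2. Axin2 was called in the same 5 of 6 dose comparisons in which 15 or more of that list were called. Among the other secreted antagonists, 4 of 14 were tested, and Igfbp4 was called higher with dose in WT with every ligand (2.74, 3.45 and 1.91) and in KO with Rspo1 (3.76) and Rspo3 (3.89). Dkk4 was called lower in WT with Rspo1 (-0.58) and Rspo3 (-0.65) and in KO with Rspo3 (-0.42). Of the 9 destruction complex genes, between 0 and 4 were called, with Amer1, a partner of Apc, among them in 5 of the 6 dose comparisons (0.45 to 0.68).

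As a description over the 30 organoid libraries, which share cultures and doses, the genes whose log2(CPM + 1) values were most like those of Axin2 were Gm11670 (Pearson r = 0.993), Slc12a2 (0.990) and Mex3a (0.988). Gm11670 is annotated on the opposite strand within Axin2 (chr11:108939310-108942015), and since the strand setting of the counting is not given in the sources used here, reads of the pair cannot be told apart. Lgr5 had r = 0.973 with Axin2. Nearest to Nkd1 was Kif26b (0.973), nearest to Sp5 Mpp2 (0.929) followed at a distance of 2 places by the Wnt receptor Fzd9 (0.912), nearest to Apcdd1 Ccdc120 (0.925) and nearest to Sfrp5 Fmo1 (0.825). Among the members, Nkd1 and Sp5 had r = 0.90 and Nkd1 and Apcdd1 0.810. Sfrp5 had r of -0.173 with Axin2. Over the 15 sorted libraries the nearest to Axin2 was B4galt3 (0.978), to Sp5 Myb (0.970) and to Sfrp5 Ston2 (0.954), and among the members Axin2 and Sp5 had r = 0.921 and Sfrp1 and Dkk3 0.897. In sorted cells Lgr5 and Axin2 had r = -0.203, over libraries of several Lgr5 alleles. Notum overlaps the antisense genes Notumos and Myadml2os, and its low values carry the same limit as Axin2. Nkd1 overlaps Gm45496 on the same strand over 2917 bases, where the strand of a read cannot separate the 2 genes.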

How the data were processed

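RNA-seq was done on 15 libraries of sorted cells and 30 of organoids. The authors trimmed reads (Trimmomatic 0.36), aligned them to GRCm38 (STAR 2.5.3a) and counted them per Ensembl gene (HTSeq 0.9.1), and deposited CPM, rounded up to the next 0.05. Reads were recovered from the CPM steps of the sorted libraries, and at E16.5 99.9348 to 99.9719% of low values fell on whole reads.

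Differences were fitted with limma 3.58.1 (trend) in R 4.3.3 on log2(CPM + 1), for genes at 1 CPM or more in at least 2 libraries, with Benjamini-Hochberg adjustment over all genes. Sorted cells used FDR 0.1 and a fold change above 1.5, organoids FDR 0.05. edgeR 4.0.16 tested the recovered reads. Scripts were tested on simulated data. Every member is named by rule, and of each other list at most the 3 called genes with the largest changes, and for likeness the 3 genes with the highest Pearson r. Members and lists were chosen with earlier results of these data known.

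Same-numbered samples share a litter at E16.5 (correlation of deviations -0.0324), a mouse for duodenum and ileum (0.257) and an embryo in organoids (0.401 to 0.589). In the Cre comparison only numbers are shared (0.161 and 0.419). RefSeq promoter windows were read on GRCm38.p6. Intervals of 3 reads cover counting error only.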

Additional observations from a re-analysis of the deposited data

Results flagged for a closer look

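The dose difference of Sp5 with Rspo2 differed between genotypes by the interaction term, at -3.21 (KO minus WT, limma adjusted p = 0.032). In WT the dose difference of Sfrp5 was -1.28 with Rspo1, 1.02 with Rspo2 and -0.72 with Rspo3, so that all 3 cultures moved down with Rspo1 and Rspo3 and up with Rspo2. The difference between ligands in this dose response was not tested.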

How the results depend on the processing

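Of 40 called values of the 10 genes, 14 stayed called under every alternative run: Dkk3 and Sfrp1 at E18.5 against E16.5, Sp5 in adults against E18.5, Sfrp5 in ileum against duodenum, and in organoids the dose differences of Axin2 in WT with all 3 ligands and in KO with Rspo3, of Nkd1 and Apcdd1 in WT with Rspo1 and Rspo2, and of Notum and Sp5 in WT with Rspo2. The cause of the other changes was not tested.

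For E16.5 KO against HE, 1 member and 91 genes were called. A pseudocount of 0.1 gave 0 members and 2 genes, no filter 0 and 0, a mean of at least 1 CPM 3 and 308, FDR 0.05 with no fold limit 0 and 12, the litter as replicate block 3 and 830, 1 fit of all 15 libraries 3 and 1073, and edgeR 3 and 354. At E18.5 against E16.5, where 5 of 6 members tested were called, no filter gave 3 members. There edgeR called 2 of the 4 members it tested. In ileum against duodenum (1280 genes), the mouse as replicate block gave 2 members and 2065 genes, 1 fit of all 15 libraries 2 members, no filter 223 genes and FDR 0.05 793 genes. In the Cre comparison (10 genes), no filter gave 18 genes, the replicate block 16, 1 fit 3, and the genotypes of the study's dataset 1 member and 779 genes. That replicate block pairs different mice by number only. For organoids, the counts here and in the next paragraph are calls summed over the comparisons of a kind. A gene called in several comparisons is counted each time. Fits of the 2 groups alone gave 0 member calls and 142 gene calls between genotypes. Between ligands the replicate block of culture gave 14 member calls, beside 8, and 26746 gene calls. For the interactions (85 gene calls), a pseudocount of 0.1 gave 36 gene calls and no filter 0 member calls and 138 gene calls. The replicate block gave 5 member calls and 775 gene calls. No blocked fit changed another call.

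Leaving out 1 library or culture gave 0 to 3 members and 53 to 1075 genes at E16.5, 2 to 4 and 5383 to 9570 at E18.5, 1 to 4 and 927 to 4172 in adults, 1 to 2 and 656 to 1084 for ileum, 0 and 6 to 22 for Cre, 13 to 18 and 31231 to 37617 for dose, 1 to 5 and 322 to 2781 for genotype, 4 to 8 and 7609 to 12287 for ligands, and 0 to 3 and 7 to 482 for interactions. Directions turned, all in values not called, for Cre Axin2 (-0.0579), Sfrp1 (-0.0107) and Sp5 (-0.47) with the dataset's genotypes. For Cre Sfrp1 they turned with the replicate block too (-0.0275), the same value as without the third cKO mouse. They also turned, with 1 sample left out, for Apcdd1 at E16.5 (-0.0529 to 0.38), Cre Sfrp5 (-0.12 to 1.22), Cre Sfrp1 (-0.15 to 0.80), Axin2 by Rspo2 dose in KO (-0.19 to 1.60), Nkd1 by Rspo3 against Rspo1 in KO at 100 ng/ml (-1.49 to 0.0740), and Sfrp5 in the genotype interactions of the Rspo1 dose (-2.73 to 0.53), of the Rspo3 dose (-3.11 to 0.42) and of Rspo2 against Rspo1 at 5 ng/ml (-2.81 to 1.39). Depth limits the members near or below 3 reads at E16.5, a level of up to 2.35 CPM.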
